A study of Mus musculus with 28 samples.

Results

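The Dlk1-Dio3 imprinted locus was examined here as 1 Mb of mouse chromosome 12, from 110.6 to 111.6 Mb in build mm9, which by its definition holds Dlk1, Meg3, Rtl1 and Dio3. The interval comprised 5000 bins of 200 bp among 13274547 in the genome. The material was mouse embryonic fibroblasts profiled by ChIP-seq, primary cells of strain 129s2 taken from embryos at day 14.5 and used at passages 3 to 4. KO-GS cells lacked Sirt7 (SirT7-/-) and received the GS treatment, KO-NT cells lacked Sirt7 and received NT, WT-GS cells were wild type with GS, and WT-NT cells were wild type with NT. The labels do not spell out GS or NT, and the title of the series names glucose starvation. H3K27me3 and macroH2A1.1 (mH2A1 in the sample names) were precipitated in 2 libraries each per genotype and treatment, and SIRT7 in 2 libraries per treatment of WT cells. From these the authors deposited 4 segmentations, each assigning every bin to 1 of 4 states named U1 to U4, and 2 lists of SIRT7 peaks. Each segmentation and each list stands for both replicates together, so replicate error is unknown for every value and no difference between conditions could be tested. The number of reads behind each file, and so its depth, is unknown. The files hold no expression values, so the fibroblast identity of the cells could not be checked against marker genes, and their sex is not stated.

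Dlk1-Dio3 is an imprinted domain, in which the copy inherited from the father and that inherited from the mother are used differently. Dlk1 (a transmembrane ligand of the Notch type that restrains fat cell formation), Rtl1 (a retrotransposon-derived protein of placenta and muscle) and Dio3 (the deiodinase that inactivates thyroid hormone) are expressed mainly from the paternal copy. Meg3, also called Gtl2, is a long noncoding RNA expressed from the maternal copy, as are Rian, Mirg and the clusters of microRNAs and snoRNAs that follow it. H3K27me3, laid down by Polycomb repressive complex 2, and the histone variant macroH2A1 are generally found in repressed chromatin, and SIRT7 is a nuclear NAD-dependent deacylase. The segmentations combine both parental copies, which cannot be told apart here.

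In the RefSeq annotation of build GRCm38.p6 the order of these genes is Dlk1, Meg3, Rtl1, Rian, Mirg, Dio3os and Dio3, with Wdr25 and Begain ahead of Dlk1. Between Dlk1 and Dio3 that annotation lists 101 genes, of which 61 are microRNAs, 19 snoRNAs, 16 long noncoding RNAs, 4 pseudogenes and 1, Rtl1, protein coding. No annotation of build mm9 was used here, so states could not be assigned to single genes and are given by position in mm9. The starts of 3 of the 4 members are shown for the CG content of their DNA, because Polycomb repressive complex 2 is known to favour CG-rich sequence. Each stretch runs from 250 bases before to 50 bases after a RefSeq start of build GRCm38.p6, plus strand of chromosome 12, with every CG in capitals (CG reads the same on both strands). The start of Dlk1 in that table is not the outermost start of the gene.
Dlk1: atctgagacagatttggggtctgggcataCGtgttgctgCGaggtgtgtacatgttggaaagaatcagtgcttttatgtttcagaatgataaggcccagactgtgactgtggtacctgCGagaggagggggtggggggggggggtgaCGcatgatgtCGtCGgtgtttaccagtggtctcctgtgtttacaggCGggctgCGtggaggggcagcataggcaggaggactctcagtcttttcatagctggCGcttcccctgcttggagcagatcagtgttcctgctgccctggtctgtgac
Meg3: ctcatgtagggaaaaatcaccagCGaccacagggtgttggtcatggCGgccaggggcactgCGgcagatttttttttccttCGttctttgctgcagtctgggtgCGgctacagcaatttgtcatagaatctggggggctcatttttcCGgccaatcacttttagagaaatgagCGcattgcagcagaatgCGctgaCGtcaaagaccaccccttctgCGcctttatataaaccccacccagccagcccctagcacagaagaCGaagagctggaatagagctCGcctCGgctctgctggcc
Dio3: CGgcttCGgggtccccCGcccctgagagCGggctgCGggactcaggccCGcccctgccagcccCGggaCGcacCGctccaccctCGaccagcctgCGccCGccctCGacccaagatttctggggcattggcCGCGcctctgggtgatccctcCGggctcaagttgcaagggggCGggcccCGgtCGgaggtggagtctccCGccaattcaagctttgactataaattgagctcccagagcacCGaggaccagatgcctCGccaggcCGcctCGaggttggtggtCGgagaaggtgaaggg
The stretch of Dio3 held 25 CG, that of Meg3 13 and that of Dlk1 9, and a further start of Meg3 in the table held 1, against a median of 7 over 32851 such stretches in the RefSeq table. As many CG as in Dio3 were found in 18.4% of the 32851, as many as in Meg3 in 37.9% and as many as in Dlk1 in 45.8%, and 94.6% of all stretches held at least 1. The stretch of Dio3os, an RNA transcribed from the opposite strand next to Dio3, held 53 CG, a number reached by 0.451% of all stretches, and that of Rian held 0. Which state covered each of these starts was not determined, since the builds differ.

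Most of the locus lay outside U1, which is the commonest state genome-wide. U2, U3 and U4 together covered 81.4% of the region in KO-GS, 79.96% in KO-NT, 83.6% in WT-GS and 85.9% in WT-NT, against 27.3, 26.5, 29.9 and 29.5% of the genome in the same order. U3 was the most frequent state of the region in all 4 segmentations, with 38.9% in KO-GS, 45.5% in KO-NT, 42.1% in WT-GS and 33.8% in WT-NT. U2 covered 28.4, 26.98, 27.8 and 32.9% in that order. U4 covered 14.1% in KO-GS, 7.44% in KO-NT, 13.7% in WT-GS and 19.2% in WT-NT, whereas its genome shares were 1.87, 1.06, 1.64 and 2.02%. The 4 segmentations thus ranked alike by U4 in the locus and in the genome, with WT-NT highest and KO-NT lowest. Whether the states were defined once for all 4 segmentations or anew for each is not stated, so differences in state below may include differences in how the state was called.

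**Figure D1:**
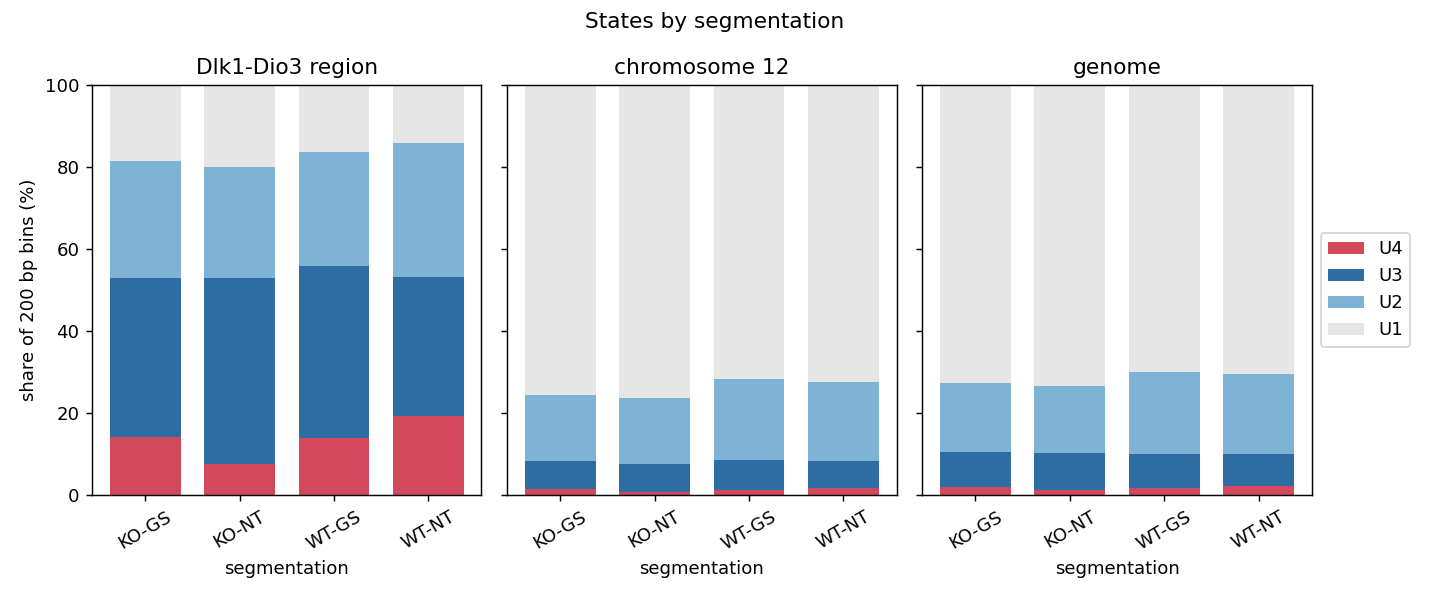
Share of 200 bp bins (%, vertical axis) in each state for the 4 segmentations (horizontal axis), in the Dlk1-Dio3 region, on chromosome 12 and in the genome. U4 covers 7.44 to 19.2% of the region and 1.06 to 2.02% of the genome, and each bar is a single segmentation with no replicate error.

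The locus was chosen by its U4 in WT cells, so its WT values are a description. Among 2644 windows of 1 Mb, that on chromosome 12 from 111 to 112 Mb, which holds the last 600 kb of the region, had the largest U4 difference between WT-GS (11.8%) and WT-NT (17.4%), -5.56 percentage points. The next window, on chromosome 2 from 33 to 34 Mb, had 12.6% in WT-GS and 17.9% in WT-NT, -5.22 percentage points. In KO cells, whose segmentations did not enter the choice, the window on chromosome 12 had 12.4% in KO-GS and 7% in KO-NT, and that on chromosome 2 had 14.6% in KO-GS and 7.3% in KO-NT. The initial 400 kb of the region, from 110.6 to 111 Mb, lies outside the window that was used. There U4 covered 10.6% in WT-GS and 11.8% in WT-NT, -1.20 percentage points, against 15.8% in WT-GS and 24.1% in WT-NT in the 600 kb inside it.

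In WT cells the region held less U4 and more U3 in GS than in NT. U4 was 13.7% in WT-GS and 19.2% in WT-NT (-5.44 percentage points), and U3 was 42.1% in WT-GS and 33.8% in WT-NT (8.28 percentage points). Of the 5000 bins 1146 (22.9%) differed in state between WT-GS and WT-NT, against 9.54% of all bins of the genome. Of the bins in U2, U3 or U4 in WT-NT, 24.8% differed in the region and 20.4% in the genome. Because this contrast chose the locus, nothing is read from either excess. Of 959 bins in U4 in WT-NT, 531 were also U4 in WT-GS (55.4%, against 53.4% over the genome). The other 428, or 8.56% of the region against 0.943% of the genome, were U3 in 369 cases, U2 in 57 and U1 in 2. The share of them in U3 was 86.2%, against 74.2% of such bins over the genome. Fewer bins went the other way: 156 were U4 only in WT-GS, 3.12% of the region against 0.561% of the genome, of which 97 were U3 in WT-NT.

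In KO cells the difference in U4 and U3 had the opposite sign. U4 was 14.1% in KO-GS and 7.44% in KO-NT, a difference of 6.64 percentage points and a ratio of 1.89, beside a genome ratio of 1.77. With bins merged into 1 kb the difference was 4.20 percentage points. U3 was 38.9% in KO-GS and 45.5% in KO-NT (-6.68 percentage points). A change of state between KO-GS and KO-NT was found at 1207 bins (24.1%), against 11.2% of the genome. Of the bins in U2, U3 or U4 in KO-NT, 24.2% changed in the region and 24.9% in the genome. Bins in U4 only in KO-GS numbered 423, or 8.46% of the region against 1.21% of the genome, and 364 of them (86.1%) were U3 in KO-NT. Bins in U4 only in KO-NT numbered 91, or 1.82% of the region against 0.39% of the genome. Of the U4 bins of KO-NT, 75.5% were also U4 in KO-GS, against 63.2% over the genome. Of the U4 bins of KO-GS, 39.9% were also U4 in KO-NT, against 35.7% over the genome. The U4 difference kept its sign in both parts of the region. In the 400 kb outside the window that chose the locus U4 was 11.4% in KO-GS and 5.65% in KO-NT, and in the 600 kb inside it 15.8% in KO-GS and 8.63% in KO-NT.

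Between genotypes U4 was lower in KO than in WT under NT, and close in both under GS. WT-NT entered the choice of the locus, so the values under NT are not independent of it. Under NT, U4 covered 7.44% in KO and 19.2% in WT (-11.7 percentage points), and U3 covered 45.5% in KO and 33.8% in WT (11.7 percentage points). In the 400 kb outside the window that chose the locus the differences were smaller, -6.15 percentage points for U4 (5.65% in KO and 11.8% in WT) and 2.60 for U3 (31.55% in KO and 28.95% in WT). The states of KO-NT and WT-NT differed at 1324 bins (26.5%), against 11.4% of the genome. Of the bins in U2, U3 or U4 in WT-NT, 30.2% differed in the region and 29.3% in the genome. Of the 959 U4 bins of WT-NT, 314 were also U4 in KO-NT (32.7% of the WT-NT bins and 84.4% of the 372 KO-NT bins), where the genome had 34.2 and 65.2%. The remaining 645, or 12.9% of the region against 1.33% of the genome, were U3 in KO-NT in 562 cases (87.1%). Over the genome 74.8% of such bins were U3 in KO-NT. U4 in KO-NT but not in WT-NT was limited to 58 bins, 1.16% of the region against 0.369% of the genome. Under GS, U4 covered 14.1% in KO and 13.7% in WT, a difference of 0.34 percentage points that was -1.10 when bins were merged into 1 kb. States differed there at 886 bins (17.7%), against 10.1% of the genome. Of the bins in U2, U3 or U4 in WT-GS, 20.3% differed in the region and 25.8% in the genome. U4 was found in KO-GS but not in WT-GS at 244 bins (4.88% against 0.849% of the genome) and in WT-GS but not in KO-GS at 227 bins (4.54% against 0.614% of the genome). Of the U4 bins of WT-GS, 67.0% were also U4 in KO-GS, against 62.6% over the genome. Of the U4 bins of KO-GS, 65.3% were also U4 in WT-GS, against 54.7% over the genome. These comparisons share segmentations, each of the 4 entering 2, and are not independent of one another.

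Over the region as a whole, the differences in U4 were for the most part exchanges with U3 at the same bins. The sum of U3 and U4 was 52.9% of the region in KO-GS, 52.98% in KO-NT, 55.9% in WT-GS and 53.02% in WT-NT, a spread of 2.92 percentage points. U4 made up 26.6% of that sequence in KO-GS, 14.04% in KO-NT, 24.6% in WT-GS and 36.2% in WT-NT. The sum was less even in the 400 kb outside the window that chose the locus. It was 40.1% in KO-GS, 37.2% in KO-NT, 44.6% in WT-GS and 40.75% in WT-NT there. That spread was 7.40 percentage points, against 2.30 in the 600 kb inside the window. In those 400 kb U1 covered 41.35% in KO-NT and 30.25% in WT-NT. Over the genome the sum of U3 and U4 was 10.4% in KO-GS, 10.1% in KO-NT, 10.06% in WT-GS and 9.90% in WT-NT. U4 made up 18.1, 10.5, 16.3 and 20.4% of that sum in the same order. Bins in U3 or U4 in all 4 segmentations numbered 2240, or 44.8% of the region against 6.99% of the genome. All 4 segmentations gave the same state at 2985 bins (59.7%, against 81.4% of the genome), of which 1218 were U3, 926 U2, 598 U1 and 243 U4. Bins in U1 in all 4 made up 11.96% of the region and 64.6% of the genome. The 2 most frequent patterns with any difference concerned U4. In one, 216 bins (4.32%, against 0.337% of the genome) were U4 in WT-NT and U3 in the other 3 segmentations. In the other, 163 bins (3.26%, against 0.278% of the genome) were U3 in KO-NT and U4 in the other 3. U4 was called in at least 1 segmentation at 1252 bins, or 25.04% of the region, against 3.31% of the genome. Of these bins 39.8% were U4 in 1 segmentation, 22.4% in 2, 18.4% in 3 and 19.4% in all 4, beside 46.01, 22.9, 16.9 and 14.3% of such bins in the genome. The borders of U4 segments were with U3 in 72.4% of cases in KO-GS, 69.4% in KO-NT, 69.4% in WT-GS and 68.3% in WT-NT, and with U1 in 0.621, 0.245, 0.327 and 0.139%. Over the genome they were with U3 in 58.2, 58.7, 54.2 and 56.9% and with U1 in 3.01, 2.32, 2.08 and 2.15%, in the same order.

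**Figure D2:**
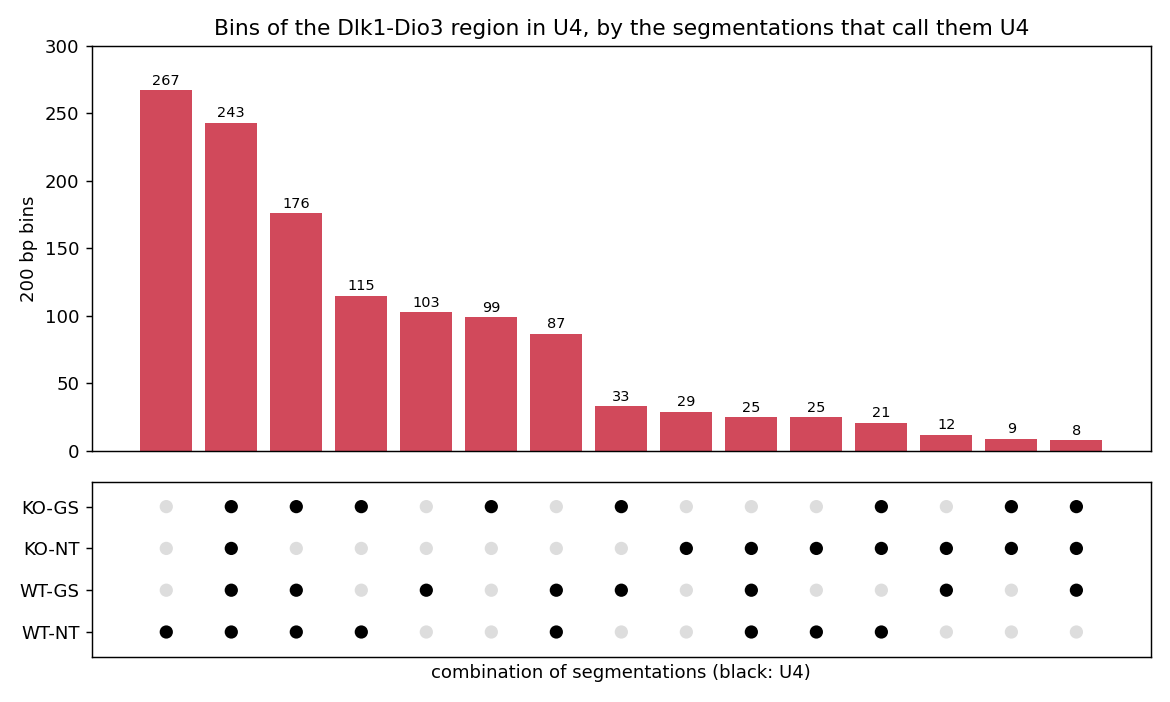
Number of 200 bp bins of the region (vertical axis) in U4, by the combination of segmentations that call them U4 (horizontal axis, black dots below each bar). Of 1252 bins in U4 anywhere, 267 are U4 in WT-NT alone and 243 in all 4, while 29 are U4 in KO-NT alone.

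U4 was spread over much of the region in short segments, but was absent from 94.8 kb that were U1 in all 4 segmentations. KO-GS had 322 U4 segments, KO-NT 204 and WT-GS 306, each with a median of 200 bp, the length of 1 bin, and WT-NT had 360 with a median of 400 bp. Over the genome the median was 200 bp in all 4. Segments of 1 kb or more numbered 32 in KO-GS, 12 in KO-NT, 25 in WT-GS and 54 in WT-NT. They held 33.4, 19.9, 29.4 and 42.4% of the U4 sequence here in that order, against 21.0, 15.8, 20.8 and 24.1% over the genome. The longest U4 segments of WT-NT lay from 111431601 to 111435200, from 111457601 to 111460600 and from 111489601 to 111492400. The last of these, 2.8 kb long, was U4 over 50.0% of its length in KO-GS, U3 throughout in KO-NT and U4 over 14.3% in WT-GS. In WT-GS the longest, of 4.4 kb, lay from 111499001 to 111503400 and was U4 over 22.7% of its length in KO-NT and 72.7% in WT-NT. KO-GS had its longest, of 2.6 kb, from 110980001 to 110982600, where KO-NT had U4 over 15.4%.

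Of the bins in U4 in any segmentation, 19.4% were U4 in all 4, against 14.3% over the genome. The 243 bins in U4 in all 4 segmentations covered 48.6 kb in 134 runs, with a median run of 200 bp. The longest run, of 1600 bp, lay from 110692401 to 110694000, and another of 1200 bp followed it from 110695401 to 110696600. By definition every such run lies within a U4 segment of KO-NT. KO-NT had 2 of its 3 longest U4 segments at the same place, from 110692401 to 110694000 and from 110694401 to 110696600. The next runs were from 111537801 to 111539200 (1400 bp) and from 111042801 to 111044000 (1200 bp). Stable U4 covered 4% of the 400 kb outside the window that chose the locus and 5.43% of the 600 kb inside it.

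**Figure D3:**
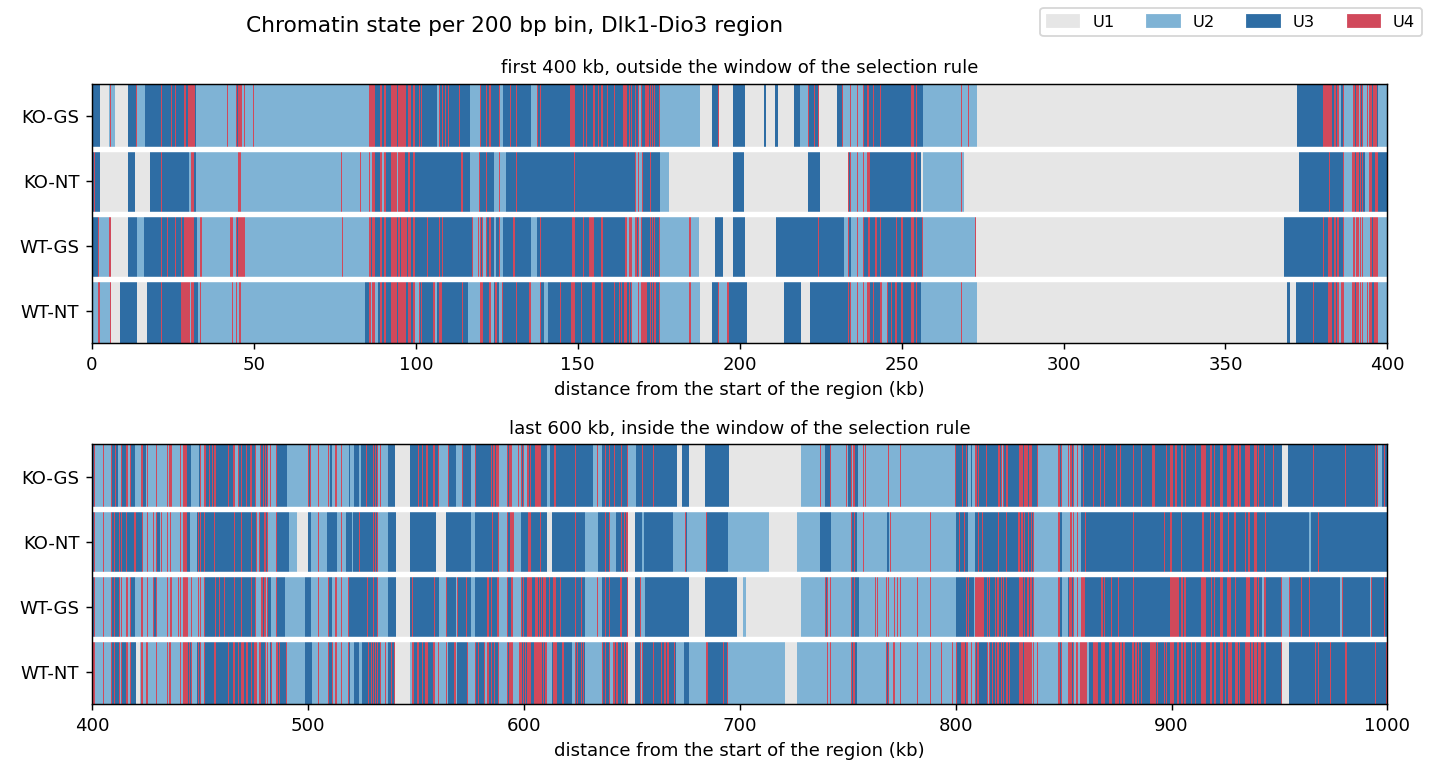
State of each 200 bp bin (colour) along the region (horizontal axis, kb from its start) in the 4 segmentations (rows). The narrow U4 bins are densest in WT-NT and sparsest in KO-NT, and 59.7% of bins have the same state in the 4 rows.

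The 10 tiles of 100 kb that make up the region differed widely in state. U4 was lower in KO-NT than in WT-NT in 10 of 10 tiles (differences from -29.8 to -3.00 percentage points) and higher in KO-GS than in KO-NT in 10 of 10 (1.80 to 12.6). In WT cells U4 was lower in GS than in NT in 8 of 10 tiles and higher in 2. Tiles are parts of the same segmentations and not replicates. The largest U4 differences between WT-GS and WT-NT and between KO-NT and WT-NT were in the tile from 111.4 to 111.5 Mb, where U4 covered 22.4% in KO-GS, 13.4% in KO-NT, 22.8% in WT-GS and 43.2% in WT-NT. U3 there was 59.0% in KO-GS, 66.6% in KO-NT, 61.0% in WT-GS and 37.6% in WT-NT, and no bin of the tile was U1 in any of the 4. Without this tile, a choice made after its values were seen, the U4 difference between WT-GS and WT-NT was -3.78 percentage points in place of -5.44. In the tile from 110.7 to 110.8 Mb, in the part of the region that the choice did not use, U4 covered 15.2% in KO-GS and 3.4% in KO-NT, and 12.8% in WT-GS and 17.2% in WT-NT. Between KO-GS and KO-NT the U4 difference was largest in the last tile (22% in KO-GS and 9.4% in KO-NT). In that tile, from 111.5 to 111.6 Mb, U3 dominated, with 73.0% in KO-GS, 90.0% in KO-NT, 71.4% in WT-GS and 69.4% in WT-NT. The tile with the most U1, from 110.9 to 111 Mb, had 72.0% in KO-GS, 72.6% in KO-NT, 68.0% in WT-GS and 70.8% in WT-NT.

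**Figure D4:**
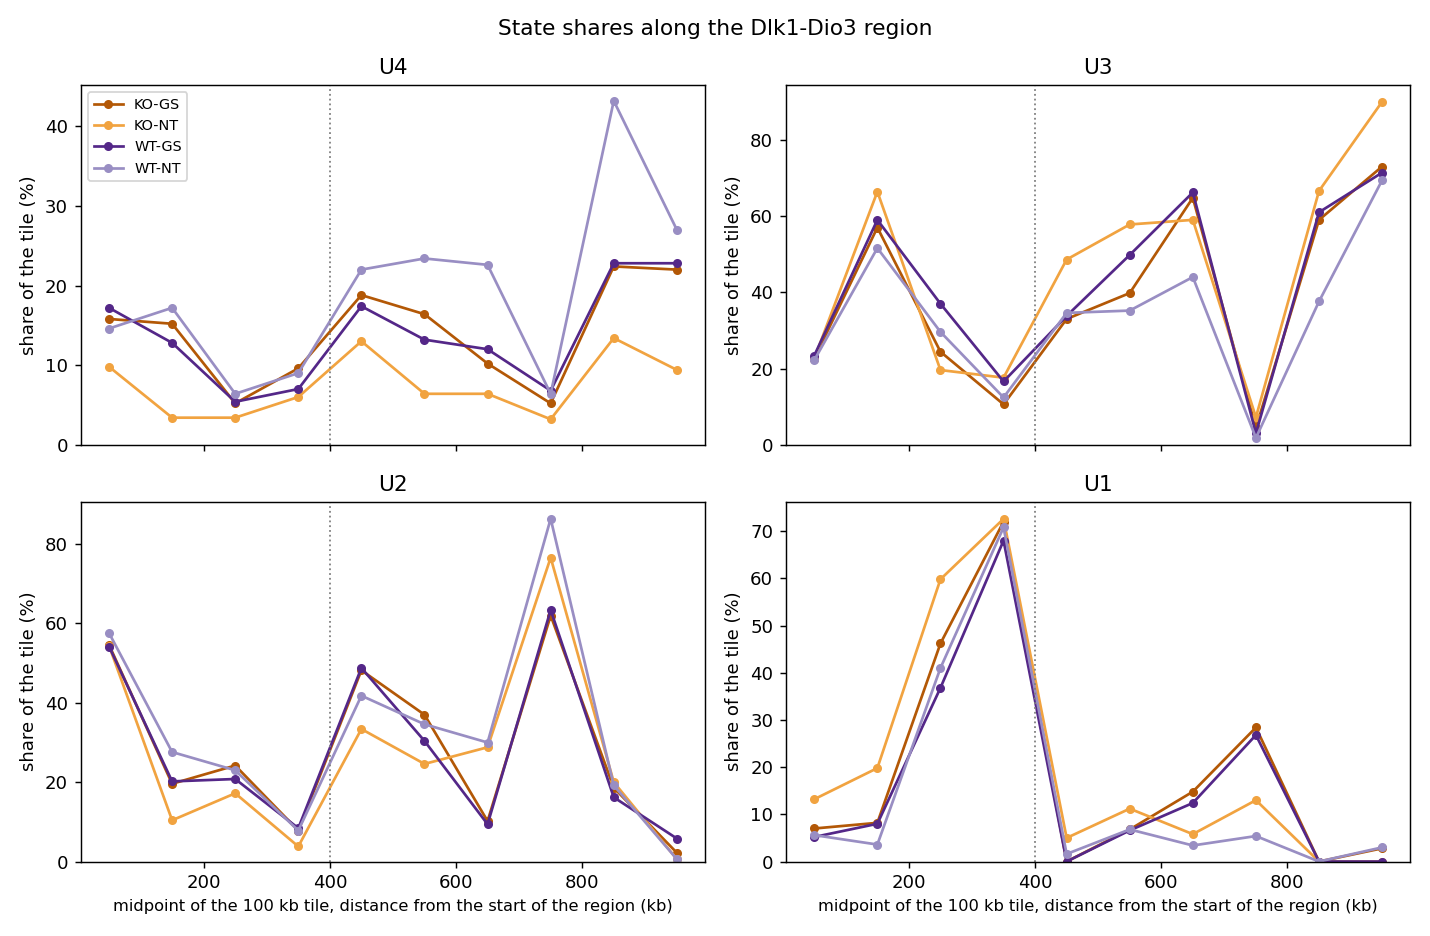
Share of each 100 kb tile (%, vertical axes) in U4, U3, U2 and U1 by the distance of the tile's midpoint from the start of the region (kb, horizontal axes), 1 line per segmentation. The dotted line at 400 kb marks the start of the part inside the window that chose the locus. KO-NT has the lowest U4 share in 10 of 10 tiles and WT-NT the highest in 7.

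Some differences between GS and NT had the same direction in both genotypes, the largest of them in U2 and U1. In the tile from 111.3 to 111.4 Mb, U2 covered 62.0% in KO-GS and 76.6% in KO-NT, and 63.4% in WT-GS and 86.4% in WT-NT. U1 in the same tile covered 28.4% in KO-GS and 13.0% in KO-NT, and 26.8% in WT-GS and 5.4% in WT-NT. The tile before it, from 111.2 to 111.3 Mb, was similar for U2, with 10.2% in KO-GS and 28.8% in KO-NT, and 9.40% in WT-GS and 30% in WT-NT. Bins that were U1 in both GS and U2 in both NT segmentations numbered 114 (22.8 kb), or 2.28% of the region against 0.399% of the genome, 45 in the tile that starts at 111.2 Mb and 69 in that at 111.3 Mb. They fell into 5 runs, the longest from 111276601 to 111284000 (7.4 kb), from 111307001 to 111313600 (6.6 kb) and from 111302601 to 111306800 (4.2 kb). This pattern was picked out after the values were seen. In WT these tiles also set the direction for U1 over the region. U1 was 16.4% in WT-GS and 14.1% in WT-NT, 2.26 percentage points, and without both tiles it was 15.6% in WT-GS and 16.6% in WT-NT, -0.975 percentage points.

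A few stretches differed by genotype under both treatments. At 49 bins (9.8 kb) both KO segmentations had U1 and both WT segmentations U3. These bins made up 0.98% of the region against 0.192% of the genome. U3 covered 42.1% of the region in WT-GS and 33.8% in WT-NT, against 8.42 and 7.88% of the genome. The shares of this pattern are therefore on unlike bases, and no excess is read from them. Of the 49 bins, 43 lay in the tile from 110.8 to 110.9 Mb. The longest runs were from 110824601 to 110830000 (5.4 kb) and from 110813601 to 110816800 (3.2 kb), and they too were picked out after the values were seen. In that tile U1 covered 46.2% in KO-GS and 59.8% in KO-NT, and 36.8% in WT-GS and 41.0% in WT-NT. U3 covered 24.4% in KO-GS and 19.6% in KO-NT, and 37.0% in WT-GS and 29.6% in WT-NT.

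Some long stretches were common to the 4 segmentations. A stretch of 222.6 kb from 111328401 to 111551000 had no U1 bin in any of them, nor had one of 160 kb from 110618001 to 110778000. Between these lay 94.8 kb, from 110873201 to 110968000, in U1 in all 4. The longest stretch of U2 in all 4 was 27 kb, from 110650001 to 110677000, and the longest of U3 in all 4 was 6.8 kb, from 111285401 to 111292200. Beyond the region U1 was more frequent. U2, U3 and U4 covered 29.1% in KO-GS, 26.3% in KO-NT, 31.7% in WT-GS and 30.96% in WT-NT of the 1 Mb before it, and 24.5, 15.9, 23.7 and 21.8% of the 1 Mb after it. U4 covered 1.90, 0.54, 1.34 and 2.24% of the sequence before the region, in the same order, and 3.84, 2.06, 3 and 3.78% after it.

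Set among the 2644 windows of 1 Mb, the region was among the richest in U4 in all 4 segmentations. The choice of the locus favoured windows with much U4 in WT-NT, so these ranks are not independent of it. A U4 share as high as that of the region was reached by 19 windows in KO-GS, 36 in KO-NT, 12 in WT-GS and 4 in WT-NT, and the median window had 0.70, 0.42, 0.64 and 0.76%. Over all 2644 windows U4 was higher in KO-GS than in KO-NT in 1887 and lower in 266. It was lower in WT-GS than in WT-NT in 1709 windows and higher in 389, and lower in KO-NT than in WT-NT in 1903 and higher in 261. In each of these 3 comparisons the sign at the locus was that of most windows. A difference as large as the 6.64 percentage points of the region between KO-GS and KO-NT was reached by 35 windows. Among the 337 windows with at least 5% U4 in WT-NT, the median ratio of KO-GS to KO-NT was 2.10. The ratio of the region, 1.89, was reached by 200 of these 337.

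**Figure D5:**
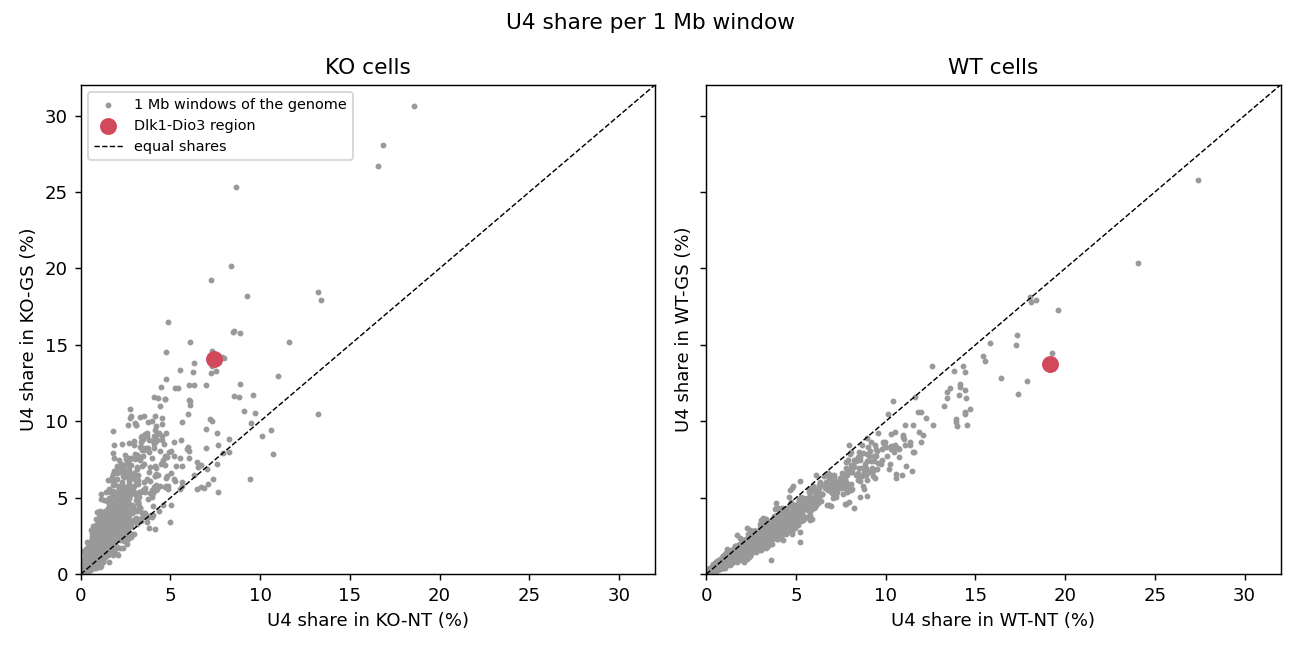
U4 share (%) of 1 Mb windows of the genome (grey points) and of the Dlk1-Dio3 region (red point), GS on the vertical axis against NT on the horizontal axis, in KO and WT cells. The region lies at 14.1% in KO-GS against 7.44% in KO-NT and at 13.7% in WT-GS against 19.2% in WT-NT, above the line of equal shares in KO and below it in WT, as do most windows.

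No SIRT7 peak was listed in the region in either treatment of WT cells. The GS list held 2671 peaks in all and 89 on chromosome 12, and the NT list held 90 and 1. The count of 0 allows up to 3 peaks in the region, or 0.112% of the GS list and 3.33% of the NT list, for counting error only. At the density of chromosome 12 in the GS list, 0.734 peaks per Mb, a region of 1 Mb would hold 0.734 peaks, so a shortage of peaks was not detectable here. Of the 2644 windows, 48.1% held no GS peak and 97.5% no NT peak. The GS peaks nearest to the locus lay 5.01 Mb before it, from 105586324 to 105588286 (1963 bp, with the authors' score of 563), and 3.22 Mb after it, from 114821446 to 114823060 (1615 bp, score 582). The gap of 9.23 Mb between them was reached by 12 of 2650 gaps between neighbouring GS peaks, whose median was 0.433 Mb. A given 1 Mb without peaks can only lie in a gap longer than itself, and more often in a long gap. The rank of this gap is therefore a description and no measure of a shortage. The single NT peak of the chromosome lay 9.20 Mb beyond the region, from 120797598 to 120799072. All 3 of these peaks were in U1 in all 4 segmentations, as were 64.6% of all bins of the genome. All 4 SIRT7 libraries came from WT cells, so the peaks could not be compared with SIRT7 ChIP from KO cells.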

How the data were processed

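ChIP-seq was made from 28 libraries, of which 8 targeted H3K27me3, 8 mH2A1 and 4 SIRT7, and 8 were input. Per the submitters' processing notes the named tools, in alphabetical order, were Bowtie, deepTools 2.4.2, FastQC 0.11.3, MACS 1.4.2, SAMtools 0.1.19 and Trimmomatic 0.36, with builds mm9 and hg19, and no roles are recorded. What the sources used here do not give is the segmentation tool, the meaning of U1 to U4, or whether 1 model defined the states of all 4 segmentations. The authors deposited a name of a state for each segment, with borders at multiples of 200 bp, and for each peak a score whose computation is not given. Files were tied to groups by the labels, and read totals are unknown.

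Segments were expanded to 200 bp bins with Python 3.11.15 and numpy 2.4.6, coordinates being counted from 1 in mm9. Bins were compared position by position between 2 segmentations, and shares were given beside those of the genome. No test was run, because each condition had 1 segmentation. SIRT7 peaks were counted with an overlap of at least 1 bp. The reading of segmentations, the state shares, the count of changed bins and the merging and joining steps were tested on a simulated segmentation. The counting of peaks was not tested in this way. The locus, its genes and the quantities reported were chosen with earlier results of these data known. Named positions were the 3 longest U4 segments per segmentation, runs of U4 in all 4 and the nearest peaks. Alternatives were 1 kb bins, joining of segments under 1 kb, other limits of the region, and the upper 50% of peaks by score.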

Additional observations from a re-analysis of the deposited data

Results flagged for a closer look

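Over the whole region the differences between GS and NT had opposite signs in KO and WT cells for each of the 4 states. The WT difference in U4 was used to choose the locus, so the WT values are not independent of that choice. With 1 segmentation per condition this difference was not tested. For U4, GS minus NT came to 6.64 points (percent of bins) in KO and -5.44 in WT, a difference of 12.1 (KO minus WT). For U3 it was -6.68 in KO and 8.28 in WT, a difference of -14.96. For U2 it was 1.46 in KO and -5.10 in WT, a difference of 6.56. For U1 it was -1.42 in KO and 2.26 in WT, a difference of -3.68. The opposite signs of U1 and U2 did not hold in every part of the region. U1 was -8 points in KO and -0.75 in WT in the 400 kb outside the window that chose the locus, and 2.97 in KO and 4.27 in WT in the 600 kb inside it. U2 was -0.967 in KO and -6.43 in WT in those 600 kb. Without the tiles from 111.2 to 111.4 Mb, U1 was -4.82 in KO and -0.975 in WT. In the 400 kb outside the window the difference (KO minus WT) was 7 points for U4 and -7.95 for U3. Over the genome the same difference was 1.20 percentage points for U4 and -1.08 for U3. The genome held far less U4 and U3 than the region, so these points are on unlike bases. As a ratio of GS to NT, U4 was 1.89 in KO and 0.716 in WT in the region. Over the genome these ratios were 1.77 and 0.811.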

How the results depend on the processing

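No paired analysis was possible because each segmentation and peak list already pools its replicates, and for the same reason no replicate could be left out. Of 54 alternatives, 29 left the 95% counting interval of the value reported and 2 changed sign. That interval treats bins as independent although neighbours are not. The other 23 stayed within the interval or, for the SIRT7 counts, which had no interval, stayed at 0. The U4 difference between WT-GS and WT-NT was -1.20 percentage points in the 400 kb outside the window that chose the locus, -8.27 in the 600 kb inside it and -3.78 without the tile from 111.4 to 111.5 Mb. That between KO-GS and KO-NT was 4.20 with 1 kb bins and 4.62 with segments under 1 kb joined. KO-NT minus WT-NT was -10.06 with segments joined, -6.15 in the 400 kb, -15.5 in the 600 kb and -9.73 without that tile. KO-GS minus WT-GS was -1.10 with 1 kb bins, where it changed sign. The share of bins that changed state, with 1 kb bins, was 20.6% between GS and NT in KO, 21.3% in WT, 15.8% between genotypes in GS and 24.6% in NT. With segments joined these shares were 21.7, 21.4, 15.2 and 24.5%. They were 18.5, 16.6, 14.4 and 24.1% in the 400 kb and 27.9, 27.1, 19.9 and 28.03% in the 600 kb. With the region narrowed by 100 kb at each end the share in KO was 25.7%. Without the tiles from 111.2 to 111.4 Mb, GS minus NT for U1 came to -4.82 points in KO and -0.975 in WT, where it changed sign, and for U2 it was 5.98 in KO, and -0.925 in WT. The alternatives that leave out tiles were chosen after seeing the data. The count of 0 SIRT7 peaks was the same under every alternative run. The cause of these changes was not tested.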
